A study of Arabidopsis thaliana with 45 samples.

Results

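Leaves of Arabidopsis seedlings fixed at Q4, the last time point of a mock suborbital flight profile, were compared with leaves fixed at Q1, the first one. The comparison takes 6 of the 45 libraries of the series, chosen by their labels alone: Q4L replicates 1 to 3 and Q1L replicates 1 to 3. All were leaves of wild type Col-0 plants, 7 days old, grown on phytagel-encased mesh coupons with 0.5x MS medium under a 24 hour light cycle with 8 hours of dark storage, and fixed in RNAlater inside a KSC Fixation Tube (KFT), a sealed chamber that releases fixative when it is actuated. By the labels the Q4 plants had spent 4 hours and 28 minutes in the KFT and the Q1 plants 4 hours, with no clinorotation in either group, so that the question is what another 28 minutes in the closed tube did to leaf transcripts. Each library pooled all leaves of 2 plants, and the 3 libraries of a group came from 1 KFT, so time and vessel cannot be told apart and the p-values measure only the spread between libraries from the same tube. Q4L replicate 1 (Q4L1) carries conflicting labels. Its source name reads Q3, but it was kept in Q4, where its title, its code and its stated time in the KFT place it.

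Several of the pathways examined here are well known for quick transcript changes in leaves. Nitrate is reduced to nitrite by nitrate reductase and then to ammonium by plastid nitrite reductase, an enzyme that carries siroheme, and glutamate synthase passes the nitrogen on to amino acids. When sugar runs short, leaves turn on a set of dark-induced genes led by asparagine synthetase, which stores nitrogen in a carbon-poor form. Phenylalanine ammonia lyase opens the phenylpropanoid pathway and chalcone synthase its flavonoid branch, and both respond to light and sugar. NAC transcription factors of the ATAF group and the hormone abscisic acid (ABA) act in drought, wounding and senescence.

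Total counts were 29203427, 51827389 and 45106492 in Q4L replicates 1, 2 and 3, against 49766480, 48779472 and 47323203 in the Q1L libraries. Q4L1 stood apart from every other leaf library. In Q4L1, 1226 genes had no read although their median over the other 11 unrotated leaf libraries (Q1L to Q4L) was at least 1 CPM (the read count scaled to library size), against 0 to 275 such genes in each of the others. These missing genes were low ones, with a median of 2.17 CPM elsewhere against 18.8 CPM for all 17960 genes at that level. Conversely, 49 genes reached 2 CPM in Q4L1 and stayed under 0.5 CPM in all other leaf libraries. Q1L1 came next by genes of its own, 23 against at most 5 in any remaining library, and had 149 missing genes, fewer than the 275 of Q2L2. Among the 6 libraries compared, the Pearson correlation of log2 CPM, a description across genes, was 0.8091 to 0.8457 between Q4L1 and the other 5, and 0.8927 to 0.9027 between Q1L1 and the 4 besides Q4L1. Q4L2 and Q4L3 both lay at least 2-fold off all Q3L libraries for 61 genes, and Q4L1 was nearer to Q3L for 52 of them (85.2%). By the same rule Q4L1 was nearer to Q1L for 27 of 33 genes (81.8%) and to Q2L for 1 of 4. The high share was thus not limited to Q3L. The same share, taken for each of the other 11 libraries against each other group, ran from 6.06% to 80.0%. Whether the source name or the other labels of Q4L1 are right was not tested. Values without Q4L1 or Q1L1 are given for many, not all, of the genes where leaving one out changed a call or moved a value by much.

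**Figure D1:**
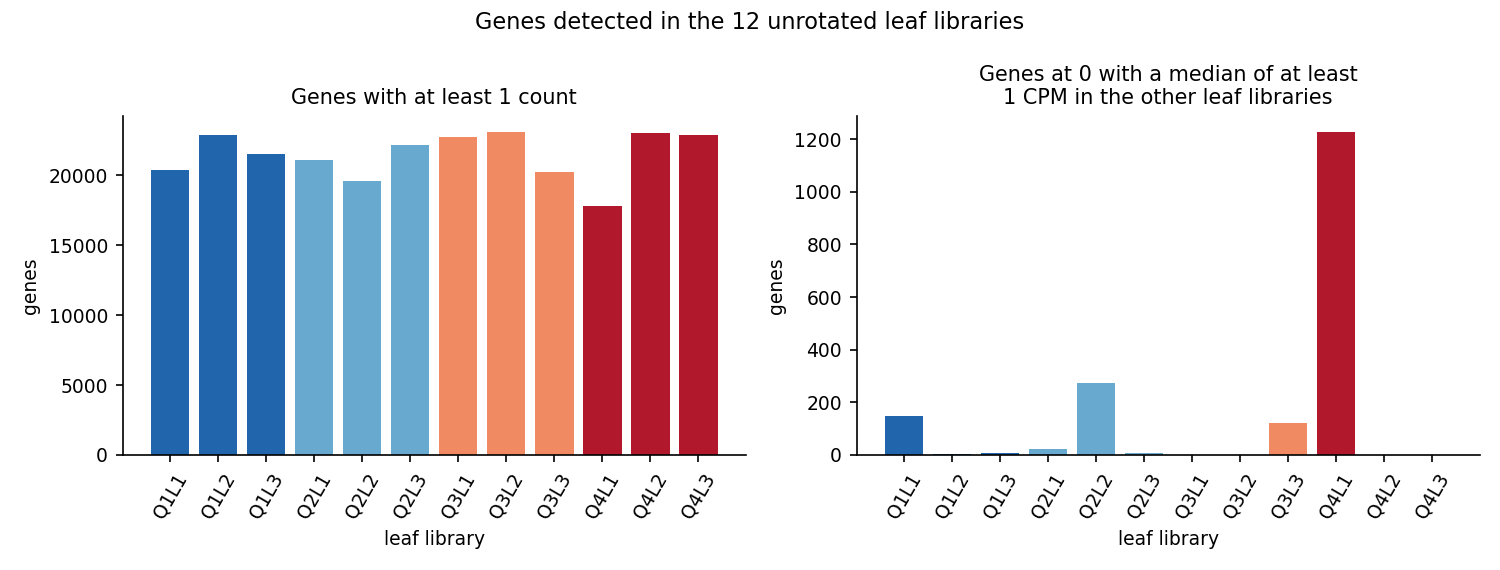
The 12 unrotated leaf libraries are shown by the number of genes with at least 1 count (left). The right panel gives the number of genes that have no read in a library although the median of the other libraries is at least 1 CPM. Q4L1 combines the fewest genes with a count, 17817, with the most missing genes, 1226.

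The libraries carried leaf transcripts. RBCS1A, a small subunit of Rubisco, had 17889, 16688 and 13832 CPM in Q4L1 to Q4L3 and 13057, 16673 and 16187 CPM in Q1L1 to Q1L3. All CPM given here are TMM-normalized over the 12 leaf libraries, and per-library values follow the order of replicates 1 to 3. RCA, Rubisco activase, had 8282, 7264 and 6609.7 CPM in Q4L and 3593, 8640.5 and 7724 CPM in Q1L. Among the root markers, the endodermal genes CASP1 and CASP2 and the root hair gene COBL9 had no read in Q4L1 and at most 1.94 CPM in Q4L2 and Q4L3, while CASP1 reached 8.91 CPM in Q1L1. The 11 root markers tested had a median log2 fold change of -0.44 (Q4L over Q1L), and of 0.92 without Q1L1. The part of root tissue in the results below was not tested.

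The edgeR quasi-likelihood test called no gene. At an adjusted p of 0.05 it called 0 of 20633 genes (0%), with a smallest adjusted p of 0.955 and 738 genes at an unadjusted p under 0.05, of which 428 (2.07%) were higher and 310 (1.50%) lower in Q4L. DESeq2 called 51 of 23522 genes, 35 higher (0.149%) and 16 lower (0.0680%). With a log2 fold change of at least 1 as well, which defines a differentially expressed gene (DEG) here, 41 remained by DESeq2 (0.174%), 30 higher (0.128%) and 11 lower (0.0468%). Of the 35 higher calls, 14 had at least 98% of their reads in Q4L1 alone. In the other 37 calls, 21 higher and 16 lower, the reads came from several libraries. Of these 37, DESeq2 without Q4L1 called 34, DESeq2 without Q1L1 10 (4 higher and 6 lower) and DESeq2 without both 35. The 10 were CHS, UPM1, NIR1, CYP83A1, WAK1, AT4G12290, ORF25, AT2G07042, AT1G27565 and AT2G42150, so most calls below did not pass without Q1L1, and their adjusted p in that fit is given beside them. All Q4L libraries lay above all Q1L libraries for 21 and below them for 15 of the 51 genes, against 1395 (6.76%) and 1582 (7.67%) of all genes tested by edgeR. The 51 genes were called on these same libraries, so their separation largely follows from the calls and adds no support to them. Below, a gene is called higher or lower only by a named tool, and every log2 fold change is Q4L over Q1L from the edgeR fit of the 6 libraries, with its standard error (SE). The median log2 fold change of all genes was -0.03.

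The common biological coefficient of variation in edgeR was 0.562. Why edgeR and DESeq2 differed in their calls was not tested. After the data had been seen, 3 kinds of fit that rest less on Q4L1 and Q1L1 were added. edgeR without both libraries called 46 genes, 18 higher (0.0852%) and 28 lower (0.133%), 36 of them DEGs. A limma voom fit that weights each library by its own spread gave Q4L1 a weight of 0.114 and Q1L1 a weight of 0.34, against 1.82 to 2.5 for the other 4, and called 55 genes, 26 higher (0.126%) and 29 lower (0.141%). DESeq2 without Q4L1 called 198 genes, 63 higher and 135 lower. DESeq2 on all 6 libraries, edgeR without both and the weighted fit shared 15 genes. The 7 higher ones were NAC032, AT3G15500, PUB19, GASA4, KCS16, AT2G43340 and AT5G03545. The 8 lower ones were CHS, PAL1, UPM1, NIR1, CYP83A1, WAK1, SAPX and AT4G12290. These fits share counts of the same libraries, so their overlap adds no support to the calls. DESeq2 without Q1L1 did not call PAL1, SAPX or any of the 7 higher ones.

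DESeq2 called chalcone synthase lower at Q4, and most of the flavonoid list lay on the same side. CHS (AT5G13930), which makes the first flavonoid intermediate, had 105, 112 and 108 CPM in Q4L1 to Q4L3, against 215, 211 and 234 CPM in Q1L1 to Q1L3. The groups did not overlap, and the spread within each was small, with means of 108 ± 3.18 CPM at Q4 and 220.1 ± 12.3 CPM at Q1 (SD, n = 3 each). The log2 fold change was -1.01 (SE 0.16), with a DESeq2 adjusted p of 5.58e-07, the smallest of the comparison. It stayed between -1.04 and -0.97 when any library was left out. PAL1 (AT2G37040), the phenylalanine ammonia lyase that feeds this pathway, had 46.6, 87.0 and 74.4 CPM in Q4L and 191, 152 and 137 CPM in Q1L. Again no libraries overlapped, and DESeq2 called it lower (log2 fold change -1.20, SE 0.27, DESeq2 adjusted p = 0.0284, 0.47 without Q1L1).

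Of the 15 flavonoid genes tested, 11 had a negative log2 fold change, the median was -0.55 (-0.74 without Q4L1) and 5 lay below all Q1L libraries, against 7.67% of all genes. DESeq2 called CHS alone among them, where it called 0.0680% of all genes lower. FLS1, the flavonol synthase, had 29.8, 16.8 and 29.6 CPM at Q4 and 51.1, 43.6 and 48.0 CPM at Q1, without overlap (log2 fold change -0.90, SE 0.26, DESeq2 adjusted p = 0.417), and was called lower by DESeq2 without Q4L1 (adjusted p = 0.0183). Its regulator MYB111 also lay lower in every Q4L library, with 3.20, 3.87 and 2.36 CPM against 7.80, 3.99 and 6.41 CPM. CHI, the chalcone isomerase, overlapped between groups, with 43.6, 18.4 and 18.1 CPM at Q4 and 24.0, 21.0 and 29.4 CPM at Q1. The upstream region of CHS is shown because it was the steadiest of the lower genes. It is the 250 bases before the transcript start in the RefSeq annotation of TAIR10.1, chr5:4488226-4488475, plus strand, 5′ to 3′, with a G-box (CACGTG, 233 to 228 bases before the start) and an evening element (AAATATCT, 84 to 77 bases before the start) in capitals.
CHS: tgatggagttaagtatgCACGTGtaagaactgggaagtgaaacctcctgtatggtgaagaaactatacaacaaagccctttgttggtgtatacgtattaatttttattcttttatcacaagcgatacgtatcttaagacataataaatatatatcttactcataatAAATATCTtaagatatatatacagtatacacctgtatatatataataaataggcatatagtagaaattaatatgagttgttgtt

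**Figure D2:**
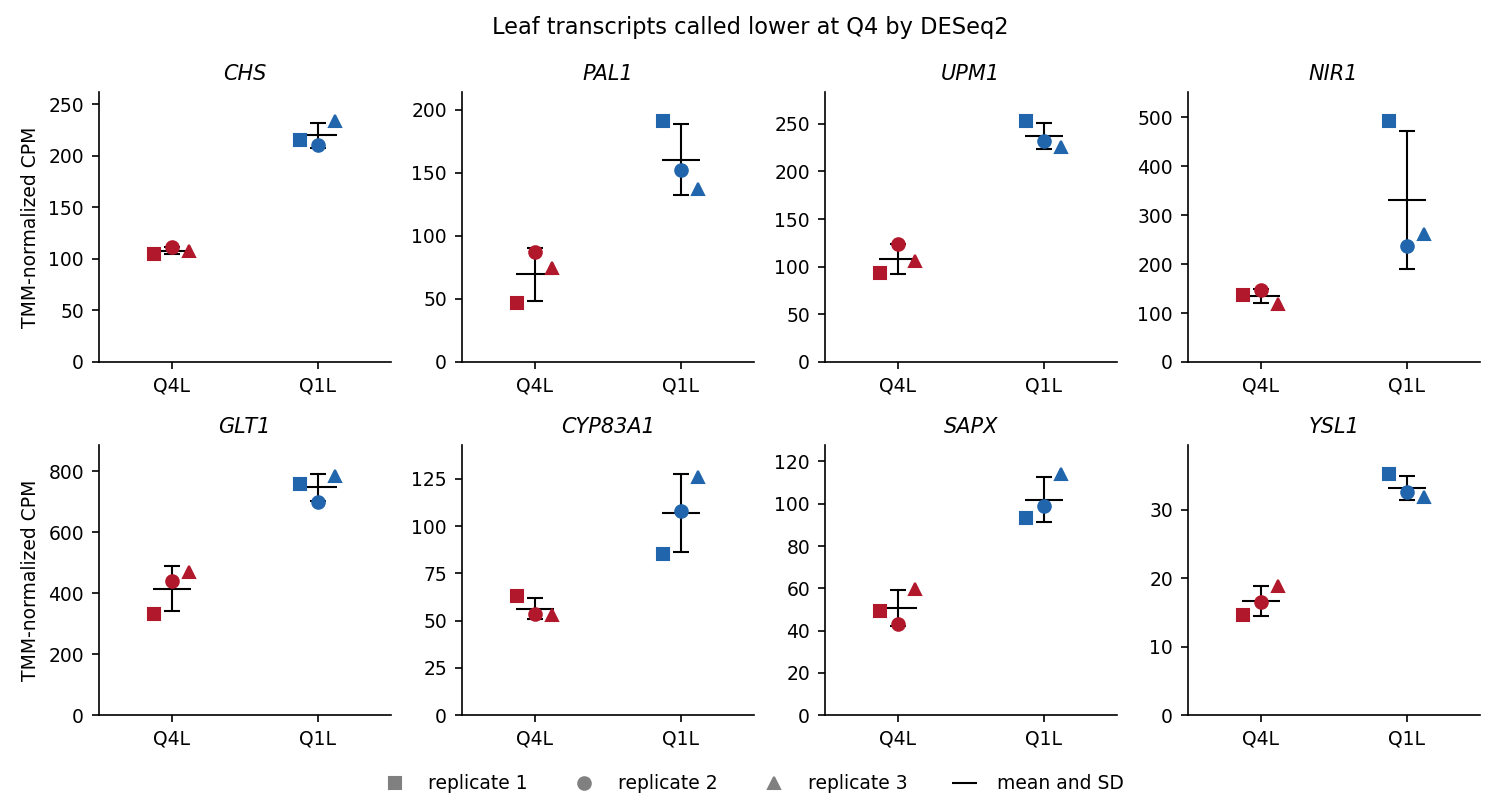
TMM-normalized CPM of 8 genes that DESeq2 called lower at Q4 are plotted per library, with Q4L left of Q1L. Symbols mark the replicate, horizontal lines the mean and bars the SD (n = 3 each). In every panel the 3 Q4L points lie below the 3 Q1L points, and CHS has the tightest groups.

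UPM1, NIR1 and GLT1, each linked to a step after nitrate reductase, were called lower at Q4 by DESeq2 and not by edgeR. GLT1 was chosen after its values were seen. UPM1 (AT5G40850), the methyltransferase that starts siroheme synthesis, had 93.0, 124 and 106 CPM in Q4L and 253, 232 and 226 CPM in Q1L. NIR1 (AT2G15620), the nitrite reductase, had 136, 147 and 119 CPM at Q4 and 493, 238 and 261 CPM at Q1. Neither gene overlapped between groups, though Q1L1 was far above the other Q1L libraries for NIR1. The log2 fold change was -1.13 (SE 0.18, DESeq2 adjusted p = 1.05e-05) for UPM1. For NIR1 it was -1.30 (SE 0.30, DESeq2 adjusted p = 0.0378), and -0.89 at the least when a library was left out. GLT1 (AT5G53460), the NADH-dependent glutamate synthase, had 332, 441 and 471 CPM at Q4 and 758, 699 and 783 CPM at Q1, and DESeq2 called it lower (log2 fold change -0.84, SE 0.20, DESeq2 adjusted p = 0.0202, 0.315 without Q1L1).

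The nitrate reductases themselves did not separate. NIA1 had 394, 512 and 383 CPM in Q4L and 391, 317 and 407 CPM in Q1L, and NIA2, the major isoform, had 1742, 1708 and 977 CPM in Q4L and 2054, 1420.2 and 1736 CPM in Q1L. NRT1.1, the dual-affinity nitrate transporter and sensor, lay lower in all Q4L libraries with 60.3, 72.7 and 78.3 CPM, against 152, 108 and 99.2 CPM (log2 fold change -0.76, SE 0.22, DESeq2 adjusted p = 0.392). G6PD3, a plastid glucose-6-phosphate dehydrogenase, had 3.36, 7.04 and 4.43 CPM against 65.5, 11.6 and 11.0 CPM. Its log2 fold change of -2.56 (SE 0.75) fell in size to -1.18 without Q1L1, the library with the high value, and no fit called it. Of the 8 nitrate response genes, DESeq2 called 2 lower against 0.0680% of all genes, 4 lay below all Q1L libraries against 7.67%, and the median was -0.61, or -0.84 without Q4L1 and -0.32 without Q1L1.

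Aliphatic glucosinolate synthesis leaned the same way. These sulfur-rich defense compounds of Brassicales are made from methionine, and all 10 genes of the list had a negative log2 fold change, with a median of -0.58 (-0.69 without Q4L1) and 4 of them below all Q1L libraries, against 7.67% of all genes. CYP83A1 (AT4G13770), which oxidizes the aldoximes of the pathway, had 62.8, 53.4 and 52.9 CPM at Q4 and 85.5, 108 and 126 CPM at Q1. It was the member DESeq2 called (log2 fold change -0.91, SE 0.20, DESeq2 adjusted p = 0.049). FMO GS-OX1, which modifies the side chain, had 9.41, 9.26 and 8.86 CPM against 14.1, 19.6 and 18.6 CPM and was not called by DESeq2 (adjusted p = 0.213), but was by DESeq2 without Q4L1 (adjusted p = 0.037) and the weighted fit (adjusted p = 0.0364). MAM1, which elongates methionine, overlapped, with 175, 113 and 91.4 CPM at Q4 and 105, 171 and 241 CPM at Q1. ESM1 (AT3G14210), a lipase-like protein known to shift glucosinolate breakdown toward isothiocyanates, was outside the list and was lower by DESeq2, with 141, 155 and 98.8 CPM at Q4 against 296, 261 and 258 CPM at Q1 (log2 fold change -1.04, SE 0.21, DESeq2 adjusted p = 0.0116, 0.264 without Q1L1).

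The other genes DESeq2 called lower had varied roles. SAPX, the stromal ascorbate peroxidase that removes hydrogen peroxide in chloroplasts, had 49.3, 43.0 and 59.8 CPM in Q4L and 93.4, 99.1 and 114 CPM in Q1L (DESeq2 adjusted p = 0.0053, 0.0504 without Q1L1). YSL1, a transporter of metals bound to nicotianamine, had 14.6, 16.5 and 18.9 CPM in Q4L and 35.2, 32.6 and 31.8 CPM in Q1L (log2 fold change -0.99, SE 0.20, DESeq2 adjusted p = 0.00781, 0.22 without Q1L1). Neither overlapped, and Q4L1 lay with the other Q4L libraries in both. SPS1F, a sucrose phosphate synthase, had 49.0, 62.7 and 68.1 CPM at Q4 against 107, 98.3 and 112 CPM at Q1 (DESeq2 adjusted p = 0.0487, 0.505 without Q1L1). WAK1, a receptor-like kinase bound to the cell wall, had 10.6, 11.4 and 8.04 CPM against 19.8, 29.8 and 24.9 CPM (log2 fold change -1.31, SE 0.27). The copper amine oxidase gene AT4G12290 had 13.9, 11.8 and 9.50 CPM against 26.3, 28.5 and 32.0 CPM, the FAD-binding berberine family gene AT1G30730 2.65, 4.70 and 3.69 CPM against 11.1, 9.15 and 11.5 CPM, and AT3G23450, an uncharacterized protein, 23.6, 36.2 and 40.8 CPM against 82.6, 79.7 and 59.3 CPM. In all of these every Q4L library was below every Q1L library. Without Q1L1 the DESeq2 adjusted p was 0.361 for AT1G30730 and 0.593 for AT3G23450, and DESeq2 still called WAK1 and AT4G12290.

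DESeq2 called some genes linked to sugar shortage higher at Q4, while others of that list were level or rested on Q4L1. ASN1 (AT3G47340), the dark-induced asparagine synthetase, had 677, 431 and 165 CPM in Q4L1 to Q4L3 and 48.8, 83.5 and 150.1 CPM in Q1L1 to Q1L3. The groups barely avoided overlap, since Q4L3 was close to Q1L3, and the spread within Q4L was wide, with a mean of 424 ± 256 CPM at Q4 and 94.1 ± 51.5 CPM at Q1 (SD, n = 3 each). DESeq2 called it higher (log2 fold change 2.18, SE 0.57, DESeq2 adjusted p = 0.0255), but not without Q4L1 (log2 fold change 1.68, DESeq2 adjusted p = 0.478) or without Q1L1 (DESeq2 adjusted p = 0.309). Neither the weighted fit (adjusted p = 0.213) nor edgeR without both libraries (adjusted p = 0.246) called ASN1. STP1 (AT1G11260), the main plasma membrane hexose importer, separated more cleanly, with 686, 534 and 571 CPM at Q4 and 240.4, 355 and 293 CPM at Q1 (log2 fold change 1.02, SE 0.21, DESeq2 adjusted p = 0.00781, 0.129 without Q1L1). DRMH1, a dormancy-associated gene, had 1331, 619.9 and 947 CPM in Q4L and 385, 418 and 368 CPM in Q1L, and DESeq2 called it higher (log2 fold change 1.31, SE 0.28, DESeq2 adjusted p = 0.0116, 0.187 without Q1L1). Without Q4L1 the log2 fold change of DRMH1 was 1.02.

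The upstream region of ASN1 is shown for comparison with that of CHS, as the highest fold change among the pathway genes that DESeq2 called higher. It is the 250 bases before the RefSeq start in TAIR10.1, chr3:17441432-17441681, minus strand, 5′ to 3′. Capitals mark a G-box (CACGTG, 167 to 162 bases before the start), an I-box (GATAAG, 111 to 106, and on the opposite strand 246 to 241) and a sugar motif (TATCCA, 101 to 96).
ASN1: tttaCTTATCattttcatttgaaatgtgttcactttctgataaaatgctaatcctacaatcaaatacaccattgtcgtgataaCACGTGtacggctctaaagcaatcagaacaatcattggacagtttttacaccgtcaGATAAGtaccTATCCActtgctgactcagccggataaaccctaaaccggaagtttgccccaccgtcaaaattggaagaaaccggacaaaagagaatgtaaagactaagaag

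Of the other dark and sugar starvation genes, SEN1 and DIN4 were higher in Q4L1 than in Q4L2 and Q4L3, and DIN10 was level. SEN1 had 1589, 563 and 280.0 CPM in Q4L and 350.4, 337 and 363 CPM in Q1L, and its log2 fold change of 1.21 (SE 0.55) dropped to 0.28 without Q4L1. DIN4, a subunit of branched-chain keto acid dehydrogenase, had 159, 77.4 and 78.5 CPM against 55.7, 57.2 and 67.5 CPM, and likewise 0.81 (SE 0.30) became 0.39. DIN10, another dark-induced gene, was level with 906, 902 and 874 CPM against 876, 755 and 922 CPM. Of the 21 genes tested 17 had a positive log2 fold change, 4 lay above all Q1L libraries against 6.76% of all genes, DESeq2 called ASN1 and STP1 higher against 0.149%, and the median was 0.41, or 0.19 without Q4L1. By edgeR without Q4L1 and Q1L1, 1 member was called lower, against 0.133% of all genes, and 0 higher. The weighted fit called 1 higher, against 0.126%, and 0 lower. Among the sugar-induced and sugar transport genes, SUS1, a sucrose synthase, lay lower at Q4 with 10.9, 4.87 and 5.97 CPM against 28.8, 12.8 and 18.2 CPM (log2 fold change -1.46, SE 0.42, DESeq2 adjusted p = 0.356). It was called lower by the weighted fit (adjusted p = 0.0392), by edgeR without both libraries (adjusted p = 0.0497) and by DESeq2 without Q4L1 (adjusted p = 0.000385).

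**Figure D3:**
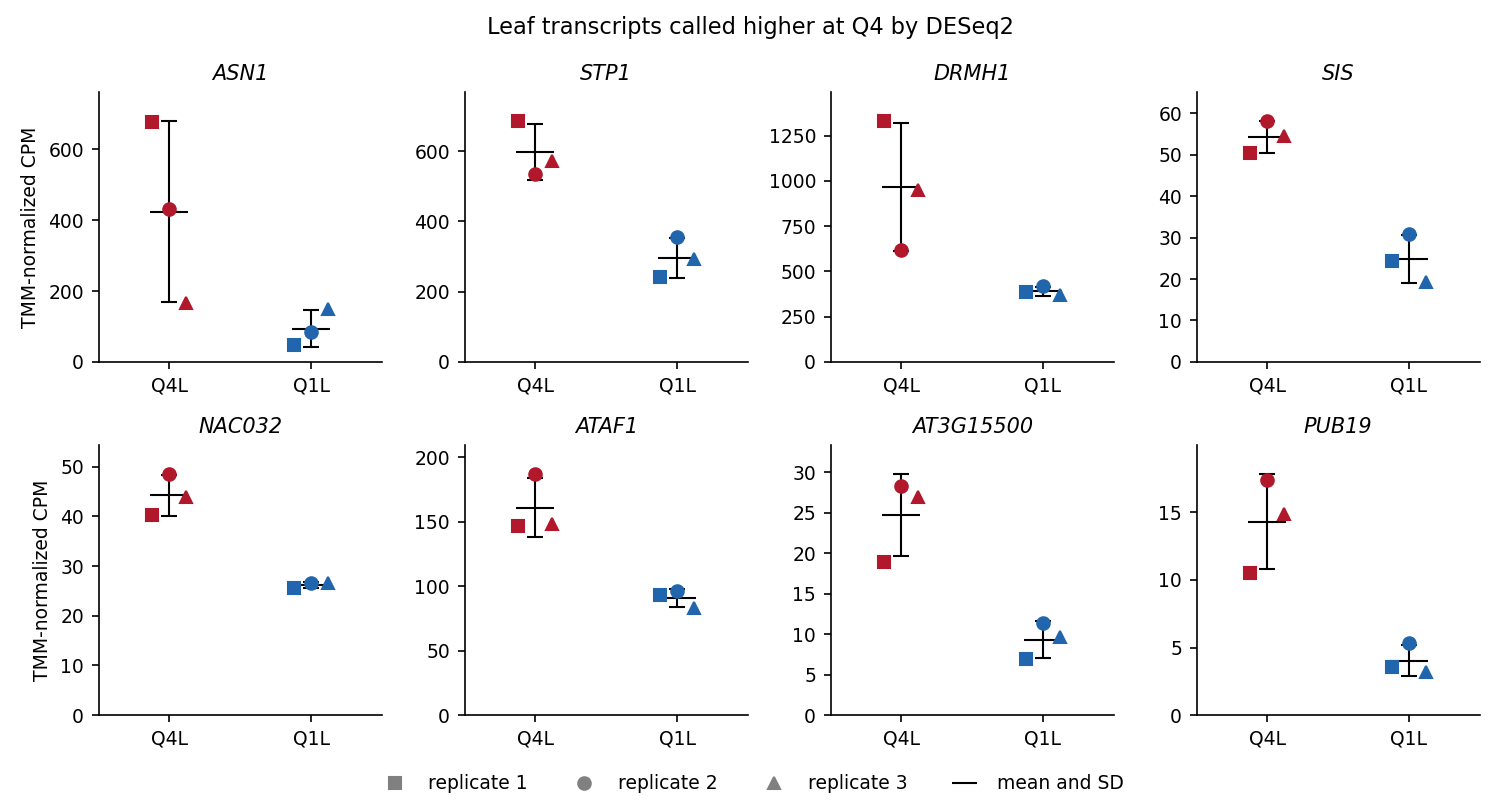
TMM-normalized CPM of 8 genes that DESeq2 called higher at Q4 are plotted per library, with Q4L left of Q1L, the mean as a line and the SD as bars (n = 3 each). All Q4L points lie above all Q1L points in every panel. ASN1 has the widest Q4L group, 165 to 677 CPM, and NAC032 the tightest Q1L group.

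The NAC transcription factor genes NAC032, ATAF1 and AT3G15500 were called higher at Q4 by DESeq2. NAC032 (AT1G77450) had 40.3, 48.5 and 44.0 CPM in Q4L and 25.6, 26.6 and 26.5 CPM in Q1L, with a log2 fold change of 0.76 (SE 0.18, DESeq2 adjusted p = 0.0292, 0.375 without Q1L1). Its close relative ATAF1 (AT1G01720) had 147, 187 and 148 CPM at Q4 and 93.4, 96.7 and 83.4 CPM at Q1 (log2 fold change 0.82, SE 0.18, DESeq2 adjusted p = 0.017, 0.208 without Q1L1). Both groups were tight and apart. AT3G15500, annotated as NAC domain containing protein 3, had 18.9, 28.3 and 27.0 CPM against 6.93, 11.4 and 9.68 CPM (log2 fold change 1.41, SE 0.29, DESeq2 adjusted p = 0.00959, 0.104 without Q1L1). PUB19 (AT1G60190), a ubiquitin ligase known to restrain ABA and drought responses, had 10.5, 17.4 and 14.9 CPM at Q4 and 3.54, 5.32 and 3.16 CPM at Q1, the largest change of this set (log2 fold change 1.84, SE 0.36, DESeq2 adjusted p = 0.00207, 0.0595 without Q1L1).

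ABA genes lay mostly on the higher side, but none passed in edgeR or DESeq2 on all 6 libraries. Of the 16 genes of ABA synthesis and response 14 had a positive log2 fold change, 4 lay above all Q1L libraries against 6.76% of all genes, the median was 0.53 both with and without Q4L1, and edgeR and DESeq2 called 0, with 4 higher at an unadjusted edgeR p under 0.05 against 2.07%. RD26, a NAC factor induced by drought, had 50.9, 28.1 and 23.0 CPM in Q4L and 16.9, 15.3 and 13.8 CPM in Q1L (log2 fold change 1.15, SE 0.32, DESeq2 adjusted p = 0.341, 0.012 without Q4L1 and Q1L1). HB-12, an ABA-induced homeobox gene, had 57.8, 29.0 and 27.0 CPM against 12.6, 17.6 and 15.9 CPM (log2 fold change 1.31, SE 0.33, DESeq2 adjusted p = 0.178, 0.0317 without Q4L1). Both were highest in Q4L1 and apart in all libraries, and without Q4L1 the log2 fold change was 0.75 for RD26 and 0.88 for HB-12. The dehydrin RAB18 overlapped, with 20.5, 55.4 and 55.2 CPM against 6.48, 22.3 and 13.7 CPM, and was called higher by the weighted fit (adjusted p = 0.0179) and by edgeR without Q4L1 and Q1L1 (adjusted p = 0.0248). NCED3, the rate-limiting enzyme of ABA synthesis, had 14.8, 21.7 and 17.2 CPM at Q4 and 9.85, 13.9 and 11.5 CPM at Q1.

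The remaining genes DESeq2 called higher with reads in several libraries included growth and wax genes. GASA4, a gibberellin-regulated peptide, had 209, 227 and 271 CPM in Q4L and 149.5, 140.1 and 125 CPM in Q1L (log2 fold change 0.78, SE 0.18, DESeq2 adjusted p = 0.0296, 0.134 without Q1L1). KCS16, which elongates very long chain fatty acids, had 26.5, 27.5 and 32.5 CPM against 13.8, 15.6 and 14.9 CPM (log2 fold change 0.97, SE 0.21, DESeq2 adjusted p = 0.00781, 0.173 without Q1L1). SAUR29, of the auxin-responsive SAUR family, had 17.1, 10.0 and 12.5 CPM against 3.37, 5.84 and 3.91 CPM. These did not overlap, and the DESeq2 adjusted p of SAUR29 was 0.0378, or 0.315 without Q1L1. AT5G03545, annotated as expressed in response to phosphate starvation, had 29.0, 30.3 and 45.1 CPM at Q4 and 11.7, 15.3 and 11.4 CPM at Q1 (log2 fold change 1.45, SE 0.26, DESeq2 adjusted p = 0.00135, 0.0595 without Q1L1). AT2G43340, of unknown function, had 79.8, 45.9 and 54.5 CPM against 20.7, 27.0 and 22.7 CPM (log2 fold change 1.36, SE 0.25, DESeq2 adjusted p = 0.0046, 0.121 without Q1L1). SIS had 50.3, 58.0 and 54.5 CPM against 24.4, 30.8 and 19.3 CPM (log2 fold change 1.14, SE 0.22, DESeq2 adjusted p = 0.00801, 0.149 without Q1L1). The thionin THI2.2, an antimicrobial peptide, had 24.4, 11.9 and 7.74 CPM against 3.71, 2.81 and 3.18 CPM, and the esterase EXL1 had 13.0, 7.26 and 6.82 CPM against 2.71, 2.97 and 2.60 CPM, both highest in Q4L1. Without Q1L1 the DESeq2 adjusted p was 0.0595 for THI2.2 and 0.251 for EXL1. The uncharacterized genes AT5G66580 and AT5G60680 had log2 fold changes of 1.59 (SE 0.31) and 0.91 (SE 0.21), with DESeq2 adjusted p of 0.107 and 0.403 without Q1L1.

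Some DESeq2 calls rested on 1 library. The 14 genes with reads almost only in Q4L1 had 52 to 80 counts there and 0 in the other 5 libraries. They included the RING/PHD finger gene MS1, known for its part in pollen and tapetum development, with 74 counts, the AP2 factor SHN1, known for cuticular wax, with 69, the calcium-binding CML6 with 63, and AT3G02695 and AT3G01185 with 80 each. Against a floor of 3 counts over the Q1L libraries together, their mean level was at least 51.3-fold higher for AT3G02695 and at least 47.4-fold higher for MS1, on the strength of Q4L1 alone. DESeq2 without Q4L1 gave none of them an adjusted p. In the other direction HSFB3, a heat shock factor, had 0 counts in all Q4L libraries and 113, 8 and 54 in Q1L, at least 47.8-fold lower by the same floor over the Q4L libraries, and RNS1, a ribonuclease of starved and senescing tissue, had 0, 2 and 0 counts in Q4L against 534, 1 and 23 in Q1L. DESeq2 called both lower, and without Q4L1 its adjusted p was 0.0069 for HSFB3 and 0.247 for RNS1, while without Q1L1 it was 1 for both. AT2G07042, annotated as other RNA, was different, with 78, 86 and 120 counts in Q4L and 0 in each Q1L library (at least 117-fold higher). The Q2L and Q3L libraries held 0.239 to 4.94 CPM of it. AT1G27565, an uncharacterized protein gene, had 25, 154 and 339 counts in Q4L and 0, 0 and 3 in Q1L (DESeq2 adjusted p = 6.82e-05). AT2G42150, annotated as a DNA-binding bromodomain protein, had 154, 26 and 35 counts in Q4L and 0 in each Q1L library, at least 119-fold higher (DESeq2 adjusted p = 0.000401, none given without Q4L1).

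Promoters of the called genes were searched for 9 short motifs on both strands, in the 250 bases before and 50 after the RefSeq start, as a description without a test. The G-box (CACGTG) was in 4 of 20 promoters of the genes called higher with reads in several libraries (20%), in 2 of 16 promoters of the genes called lower (12.5%) and in 6.46% of 37897 nuclear gene promoters. It was in 0 of the 14 whose reads lay in Q4L1. The evening element (AAATATCT) was in 3 of 16 of the lower set (18.8%) and in 5.08% of all promoters. The W-box (TTGACC) was in 2 of 20 of the higher set and 0 of 16 of the lower set, against 13.5% of all.

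Several light-harvesting antenna genes were high in Q4L1 alone. LHCB1.1, a major antenna protein of photosystem II, had 9351, 2668 and 2457 CPM in Q4L and 2689, 2832 and 2418 CPM in Q1L, so that Q4L2 and Q4L3 were level with Q1. Its log2 fold change was 0.87 (SE 0.50) with Q4L1 and -0.03 without it. LHCB2.1 showed the same pattern, with 2767, 711 and 506 CPM against 589.9, 569 and 495 CPM, and a log2 fold change of 1.27 that became 0.16 without Q4L1. Of 20 antenna genes 18 had a positive log2 fold change, and the median of 0.55 became 0.13 without Q4L1. An exception was LHCB1.2, with 4513, 3523 and 2606 CPM at Q4 and 2027, 1824 and 1570.4 CPM at Q1, above all Q1L libraries in each Q4L library (log2 fold change 0.98, SE 0.25, DESeq2 adjusted p = 0.0882, 0.00816 without Q4L1). LHCB4.3 went the other way, with a DESeq2 log2 fold change of -0.63 (DESeq2 adjusted p = 0.9). DESeq2 without Q4L1 and Q1L1 called LHCB4.3 lower (log2 fold change -0.85, adjusted p = 9.4e-06), and edgeR without both did not (adjusted p = 0.0507). LHCB1.1, LHCB1.2 and LHCB1.3 are near-identical copies, and how uniquely mapped reads divide between them makes their single values uncertain. For the Q3L libraries LHCB1.1 was at 6884, 8869.6 and 8364 CPM, nearer to Q4L1 than Q4L2 and Q4L3 were. The 18 Rubisco and Calvin cycle genes had a median of 0.08, with none outside the range of the other group in all libraries.

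Iron regulation genes were spread widely within Q4L. BHLH100, a factor that turns on iron uptake under deficiency, had 13.0, 87.5 and 1.60 CPM in Q4L and 1.28, 0.0602 and 0.624 CPM in Q1L. BHLH101 had 8.07, 37.1 and 5.44 CPM against 4.16, 0.782 and 2.79 CPM, and the signalling peptide IMA1 had 28.7, 66.7 and 4.22 CPM against 8.83, 1.58 and 3.08 CPM. Q4L2 was the highest library for each of these, and Q4L3 was near the Q1L range. The log2 fold changes of 5.70 (SE 1.55), 2.72 (SE 0.88) and 2.89 (SE 0.99) passed in neither edgeR nor DESeq2 on all 6 libraries, and IMA1 passed in DESeq2 without Q1L1 (log2 fold change 3.85, DESeq2 adjusted p = 0.0178). Without Q4L2 that of BHLH100 was 3.48 and that of BHLH101 was 1.40. Among the other leaf libraries Q2L1 was also high, with 25.7 CPM of BHLH100 and 22.4 CPM of IMA1. FER1, the iron store ferritin, overlapped with 666, 356 and 659.7 CPM at Q4 and 69.9, 497 and 379.9 CPM at Q1. Of 17 genes 14 had a positive log2 fold change, the median was 0.83, and YSL1 was the member that DESeq2 called, in the lower direction.

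Transcripts of both organelle genomes leaned higher at Q4. Of 122 mitochondrial genes 58 passed the filter on low counts, which a gene can pass through 1 group alone. Of these 58, 50 had a positive log2 fold change, a count that the filter may tilt. All Q1L libraries lay below Q4L for 11 of them, against 6.76% of all genes, and above Q4L for 0, against 7.67%. The median was 0.84, or 0.89 without Q1L1. The weighted fit called 4 of the 58 higher, against 0.126% of all genes. ORF25 had 9.41, 6.28 and 7.45 CPM at Q4 and 2.82, 1.99 and 1.31 CPM at Q1 and was the member DESeq2 called (log2 fold change 1.92, SE 0.47, DESeq2 adjusted p = 0.0284). RRN26, the large mitochondrial ribosomal RNA, had 513, 599 and 528 CPM against 334, 247 and 356 CPM (log2 fold change 0.81, SE 0.20, DESeq2 adjusted p = 0.0569, 0.00179 without Q4L1). Chromosome 2 carries a near-identical copy of much of the mitochondrial genome, so these values are uncertain where reads could not be placed. Of the 110 plastid genes 85 were positive and 24 lay above all Q1L libraries with 0 below, against 6.76% of all genes, and the median was 0.47. CLPP1, a subunit of the plastid Clp protease, had 73.2, 70.7 and 71.0 CPM against 50.5, 36.8 and 32.9 CPM (log2 fold change 0.84, SE 0.21). PSBA, the D1 protein of photosystem II, had 304, 353 and 292 CPM against 233, 170.1 and 227 CPM. DESeq2 called neither on all 6 libraries, with adjusted p of 0.162 and 0.471. CLPP1 was called higher by the weighted fit (adjusted p = 0.0142), by edgeR without both libraries (adjusted p = 0.0212), and by DESeq2 without Q1L1 (adjusted p = 0.00154) or without Q4L1 (adjusted p = 0.0329), and PSBA by DESeq2 without both (adjusted p = 0.000655). The libraries were poly(A) selected, and the part of RNA quality or selection in these transcripts was not tested. Cytosolic ribosomal protein genes, 191 in all, had a median of 0.17, or 0.08 without Q4L1, with 34 above all Q1L libraries and 0 below, against 6.76% and 7.67% of all genes.

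**Figure D4:**
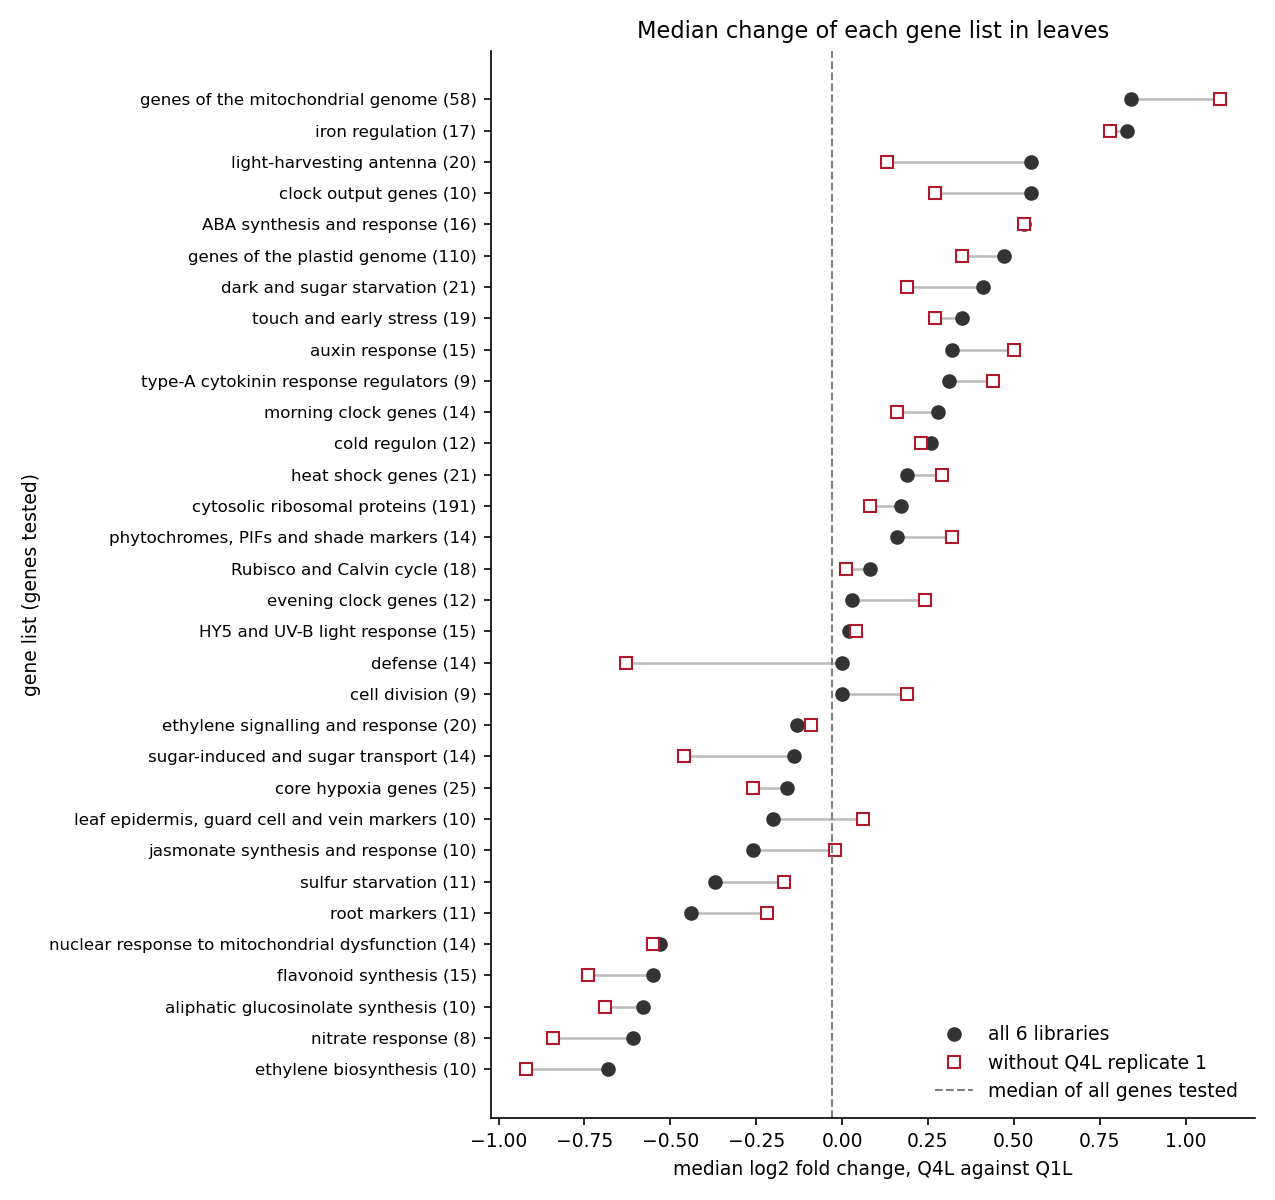
For each gene list, the median log2 fold change of its members (Q4L over Q1L, edgeR) is shown with all 6 libraries and without Q4L1. Nitrate response, flavonoid and aliphatic glucosinolate genes lie on the lower side both ways, with medians of -0.61, -0.55 and -0.58, while the antenna median of 0.55 drops to 0.13 without Q4L1.

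The other hormone, stress and clock lists held no member that edgeR or DESeq2 called. Their unadjusted edgeR calls numbered 0 to 3 per direction, against 2.07% of all genes higher and 1.50% lower. The heat shock list had the most, with 3 of 21 genes tested higher. Ethylene is the gas of most interest in a sealed tube. ACO4, an enzyme of its last step, had 1089.7, 963 and 1065 CPM in Q4L and 829.9, 695 and 637 CPM in Q1L (log2 fold change 0.54, SE 0.19, DESeq2 adjusted p = 0.471, 1.97e-05 without Q4L1 and Q1L1), while the receptor gene ETR2, which ethylene induces, had 7.51, 11.1 and 8.36 CPM against 28.9, 16.0 and 13.8 CPM (log2 fold change -1.11, SE 0.35, DESeq2 adjusted p = 0.515). Both were apart in all libraries and in opposite directions, and the log2 fold change of ETR2 was -0.73 without Q1L1. Of the 20 ethylene signalling and response genes 14 had a negative log2 fold change, with a median of -0.13. Of these 20, 1 lay above and 4 below all Q1L libraries, against 6.76% and 7.67% of all genes. The 10 ethylene biosynthesis genes had a median of -0.68 (-0.92 without Q4L1, 0.27 without Q1L1), with 2 above and 0 below. The core hypoxia genes had a median of -0.16 (0.19 without Q1L1), and ADH1, the alcohol dehydrogenase that marks low oxygen, had 1.34, 5.53 and 5.89 CPM at Q4 and 7.97, 6.28 and 6.79 CPM at Q1. PDC1, the pyruvate decarboxylase of the same route, was at 0 to 2.62 CPM in Q4L and 1.08 to 5.88 CPM in Q1L.

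Touch and early stress genes had 16 of 19 members with a positive log2 fold change and 5 above all Q1L libraries, against 6.76% of all genes, with a median of 0.35 (0.27 without Q4L1). TCH3, a calmodulin-like gene named for its response to touch, had 270.0, 213 and 194 CPM against 140.0, 151 and 134 CPM (log2 fold change 0.67, SE 0.19, DESeq2 adjusted p = 0.293, 0.0208 without Q4L1), and ERF6 had 37.6, 43.5 and 49.0 CPM against 18.6, 24.9 and 31.2 CPM. CBF2, a cold response factor, had 14.7, 20.1 and 13.7 CPM at Q4 and 4.63, 8.81 and 6.43 CPM at Q1, apart in all libraries (log2 fold change 1.30, SE 0.34, DESeq2 adjusted p = 0.162), and was called higher by DESeq2 without Q4L1 (adjusted p = 0.0332). DREB2A, a drought and heat factor, had 12.5, 31.3 and 38.2 CPM against 16.3, 12.8 and 12.3 CPM, with Q4L1 inside the Q1L range. The weighted fit (adjusted p = 0.0159) and edgeR without Q4L1 and Q1L1 (adjusted p = 0.0197) called it higher. HSP70 had 35.2, 25.8 and 26.4 CPM against 20.2, 17.5 and 11.6 CPM.

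No clock gene was called by edgeR or DESeq2 on all 6 libraries, and 2 of 12 evening and 1 of 14 morning genes lay above all Q1L libraries, against 6.76% of all genes. TOC1, an evening gene, had 34.6, 63.7 and 74.8 CPM in Q4L and 53.0, 51.1 and 63.1 CPM in Q1L, and CCA1, a morning gene, had 81.2, 108 and 64.6 CPM against 56.1, 78.1 and 87.0 CPM. HY5, the light response factor, was level with 28.4, 23.1 and 25.7 CPM against 26.4, 26.4 and 23.8 CPM. Defense genes had a median of -0.00, or -0.63 without Q4L1. FRK1, a receptor kinase gene that marks pattern-triggered immunity, had 0.475, 0.151 and 0.485 CPM at Q4 and 61.3, 2.17 and 1.83 CPM at Q1. Its log2 fold change of -5.89 (SE 1.56) was -2.43 without Q1L1, and no fit called it. PR5, a salicylic acid marker, had 6.88, 3.96 and 4.14 CPM against 12.2, 10.3 and 10.8 CPM, and the weighted fit called it lower (adjusted p = 0.036) where DESeq2 did not (adjusted p = 0.376).

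The leaves of Q2 and Q3, fixed 14 and 18 minutes after Q1, give values between the 2 time points compared. Each came from a KFT of its own, so time and vessel cannot be told apart here either. CHS had 215, 211 and 234 CPM at Q1, 298, 147 and 211 CPM at Q2, 155, 126 and 115 CPM at Q3, and 105, 112 and 108 CPM at Q4. UPM1 had 253, 232 and 226 CPM at Q1, 136, 178 and 227 CPM at Q2, 141, 164 and 188 CPM at Q3, and 93.0, 124 and 106 CPM at Q4. Both genes were lowest at Q4, with all Q3L libraries above all Q4L libraries. YSL1 and SAPX were not lower in the Q2 and Q3 tubes and were lower in the Q4 tube. YSL1 held 31.8 to 35.2 CPM at Q1, 29.7 to 36.4 CPM at Q2 and 30.7 to 37.9 CPM at Q3, and 14.6 to 18.9 CPM at Q4. STP1 had 240.4 to 355 CPM at Q1, 376 to 408 CPM at Q2, 374 to 650.0 CPM at Q3 and 534 to 686 CPM at Q4. ASN1 reached its highest value outside Q4, at 1074 CPM in Q3L2, with 111 and 197 CPM in the other Q3L libraries and 73.7 to 122 CPM at Q2.

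**Figure D5:**
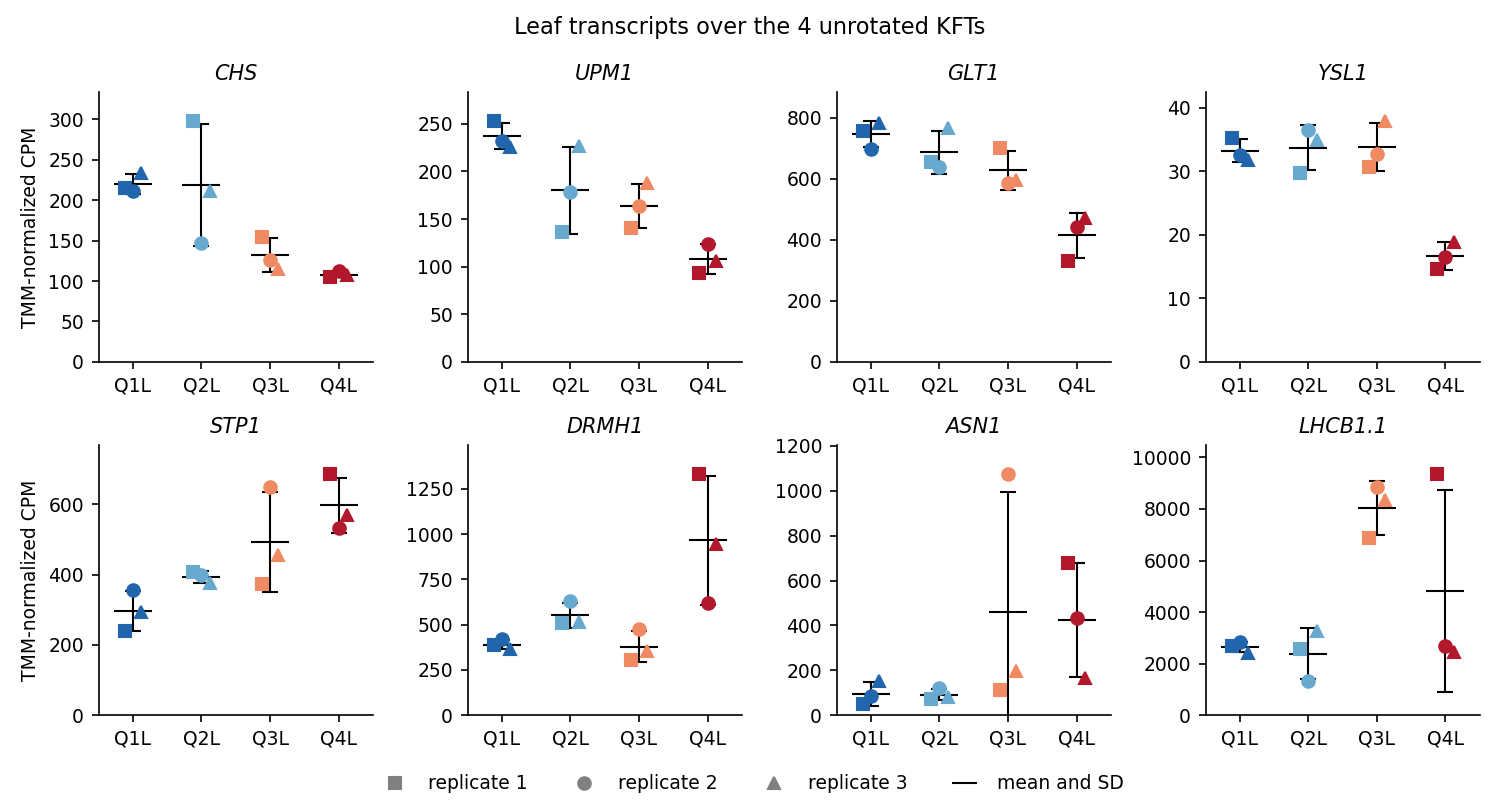
TMM-normalized CPM of selected genes are plotted for the 12 unrotated leaf libraries in the order Q1, Q2, Q3 and Q4, with points for libraries, a line for the mean and bars for the SD (n = 3 each, lower bars cut at 0). CHS and UPM1 are lowest at Q4, YSL1 is level to Q3 and lower at Q4, and ASN1 has a single high library at Q3.

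Against the mean of Q2L and Q3L, a comparison that shares the Q4L libraries with the main one, edgeR called 0 of 21679 genes (0%), with 667 higher (3.08%) and 376 lower (1.73%) at an unadjusted p under 0.05, and 1 gene without Q4L1. DESeq2 called 11, of which 4 were higher (0.0155%) and 7 lower (0.0271%), and 6 of them were DEGs (0.0233%), 4 higher and 2 lower (0.00775%). YSL1 had the smallest p, with a log2 fold change of -1.02 (edgeR unadjusted p = 2.01e-05, edgeR adjusted p = 0.435, DESeq2 adjusted p = 4.65e-06). The others were SAPX, GLT1, DRMH1, LEC, MIPS3, SAD6, SCAMP4, AT1G67870, AT3G62550 and AT5G43540. LEC, a lectin-like gene, had 196, 202 and 264 CPM at Q1, 152, 206 and 170.0 CPM at Q2, 314, 271 and 311 CPM at Q3 and 134, 117 and 159 CPM at Q4. SAD6, a stearoyl-ACP desaturase of the core hypoxia list, had 3.23 to 21.5 CPM at Q1, 15.3 to 48.6 CPM at Q2, 11.7 to 48.4 CPM at Q3 and 1.30 to 5.91 CPM at Q4.

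Roots of the Q4 and Q1 tubes show how far the leaf changes were shared. The difference of the 2 changes (leaf log2 fold change minus root log2 fold change) was tested as an interaction over 12 libraries. Leaf and root libraries of the same tube were treated as independent in it. edgeR called 2 of 22509 genes (0.00889%), with 832 higher (3.70%) and 570 lower (2.53%) at an unadjusted p under 0.05. DESeq2 called 157, 100 of them with a higher (0.438%) and 57 with a lower (0.249%) leaf change, and 147 (0.643%) also passed the fold threshold, 99 higher (0.433%) and 48 lower (0.210%). Both edgeR calls came from genes near 0 in roots. They were 0 calls with a block that joined leaf and root libraries of the same tube and number. The calls were also 0 with any 1 of 8 of the 12 libraries left out (Q4L2, Q4L3, Q1L2, Q1L3, Q4R1 or any Q1R library), and 21 without Q4L1. EXPA16, an expansin, had 24.0, 22.8 and 28.6 CPM in Q4L and 8.57, 20.0 and 17.3 CPM in Q1L, but 0 CPM in all Q4R libraries and 0.387, 0.570 and 0.390 CPM in Q1R (difference 8.23, SE 0.86, edgeR adjusted p = 0.0387). FKBP13, a chloroplast lumen immunophilin, had 176, 116 and 133 CPM in Q4L and 92.4, 142 and 114 CPM in Q1L, and 0, 0 and 0.0153 CPM in Q4R against 0.271, 0.598 and 0.363 CPM in Q1R (difference 6.05, SE 0.74, edgeR adjusted p = 0.0387).

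For genes present in both organs the comparison rests on more reads. CHS had 485, 364 and 378 CPM in Q4R and 325, 348 and 386 CPM in Q1R, so the roots overlapped where the leaves were apart, and the difference was -1.22 (SE 0.21, DESeq2 adjusted p = 8.81e-06, edgeR adjusted p = 0.179). UPM1 had 93.6 to 107 CPM in Q4R and 111 to 126 CPM in Q1R, also without overlap, with a difference of -0.85 (SE 0.20, DESeq2 adjusted p = 0.00527, edgeR adjusted p = 0.431). For ASN1 the roots had 31.0, 79.1 and 119 CPM at Q4 and 13.3, 10.2 and 35.6 CPM at Q1, and the difference between organs was 0.24 (SE 0.90, edgeR adjusted p = 1). XTH9, a cell wall xyloglucan enzyme, was level in leaves, with 187, 139.7 and 217 CPM at Q4 and 160.3, 167 and 151 CPM at Q1, and low in Q4 roots, with 51.2, 63.5 and 68.9 CPM against 214, 188 and 161 CPM (difference 1.81, SE 0.26, DESeq2 adjusted p = 1.3e-06, edgeR adjusted p = 0.102). The transporter gene NPF5.8 had 3.88, 2.94 and 4.20 CPM in Q4L against 8.49, 8.24 and 6.83 CPM in Q1L, and 27.0, 31.0 and 28.2 CPM in Q4R against 15.4, 13.2 and 15.9 CPM in Q1R, so that leaves and roots moved in opposite directions (difference -2.04, SE 0.32, DESeq2 adjusted p = 2.01e-08, edgeR adjusted p = 0.156).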

How the data were processed

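Leaf libraries of Q4 and Q1 (3 each) were compared, with Q2, Q3 and the Q4 and Q1 roots beside them. The deposited tables hold counts of reads on each gene. The authors trimmed the reads with cutadapt, mapped them to TAIR10 with STAR, removed duplicates, kept unique reads and counted them with HTSeq. The kit was directional poly(A), and whether counting used the strand is not given in the sources used here. Fold changes and p-values that the authors computed stand beside the counts and were not read, nor were 3 columns of other libraries. Per-library totals over the 6 leaf libraries were 29203427 to 51827389.

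The counts of 26837 genes were tested with edgeR 4.0.16 in R 4.3.3 (filterByExpr, TMM, quasi-likelihood test, Benjamini-Hochberg adjustment over all genes tested), and DEGs were at least 1 apart on the log2 scale at an adjusted p no higher than 0.05. Alternatives were DESeq2 1.42.0, RLE size factors, no filter, 12 leaf libraries in 1 fit, the replicate number as a block and each library left out. 5 fits were added after seeing the data: limma 3.58.1 voom with library weights, edgeR without Q4L1 and Q1L1, and DESeq2 without either or both. CPM are TMM-normalized over the 12 leaf (or 6 root) libraries. The code was tested on simulated data. Named genes were up to 12 DEGs per direction, up to 4 called members per list, the lists' preset markers, up to 8 DESeq2-only DEGs per direction and 4 interaction genes per direction. Further genes were chosen after their values were seen. They are the remaining DESeq2 calls, GLT1, list members that are not preset markers and those differing from Q2L and Q3L. The comparison and the 33 lists were chosen with earlier results of these data known, and 7 list members were not analysed here. Names and promoter sequences are from RefSeq (TAIR10.1), where 26584 genes were found by locus tag. Floors cover counting error only, since PCR reads are not independent molecules.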

Additional observations from a re-analysis of the deposited data

Results flagged for a closer look

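EXPA16 and FKBP13 were the 2 genes called by the edgeR interaction test of leaves against roots. The test called 0 genes with a block that joined leaf and root libraries of the same tube and number, and 0 with any 1 of 8 of the 12 libraries left out. The leaf minus root difference of log2 fold changes was 8.23 for EXPA16 and 6.05 for FKBP13. Both genes were at 0 to 0.0153 CPM in the Q4 root libraries and at 0.271 to 0.598 CPM in the Q1 root libraries, while their leaf levels were 22.8 to 28.6 CPM at Q4 and 8.57 to 20.0 CPM at Q1 for EXPA16 and 116 to 176 CPM at Q4 and 92.4 to 142 CPM at Q1 for FKBP13, so that the difference rests on a small number of root reads. The part of leaf RNA in the root libraries was not tested.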

How the results depend on the processing

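For Q4L against Q1L edgeR gave 0 DEGs under RLE size factors, no filter, all 12 leaf libraries in 1 fit and with each library left out (0 to 0). An unadjusted p with the fold threshold gave 266. DESeq2 gave 41 DEGs, and, added after seeing the data, 140 without Q4L1, 37 without Q1L1 and 168 without both. edgeR without both gave 36 and voom with library weights 38. Of the list members, 0 passed in edgeR, 9 in DESeq2, 28, 8 and 69 in DESeq2 without Q4L1, Q1L1 and both, 13 in edgeR without both and 17 in voom. Of all named genes the numbers were 51 in DESeq2, 77, 28 and 111 in those 3 fits, 46 and 55. For the interaction DESeq2 called 157 and edgeR 0 to 21 with a library left out (21 without Q4L1, 5 without Q4R3). For Q4L against the mean of Q2L and Q3L DESeq2 gave 6 DEGs and edgeR 0 to 1. The log2 fold change of LHCB1.1 ran from -0.03 (without Q4L1) to 1.18 with a library left out, and was -0.03 in edgeR without both, -0.04 in DESeq2 without Q4L1 and -0.03 in DESeq2 without both. Of the 73 genes with a fold change followed through all settings, no other changed direction.

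Replicate numbers did not pair the libraries: deviations of Q4L and Q1L libraries with the same number correlated at 0.0977, 0.0973 and 0.00998. With the number as a block edgeR gave 0 DEGs (513 genes at an unadjusted p under 0.05) and 0 interaction genes, in place of 2. Q4L3 did not correlate best with its own number.

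Precision is limited by 3 libraries from 1 KFT per group and by Q4L1, which has the fewest reads and lacks 1226 genes seen elsewhere. Where a fold change rests on Q4L1 or Q1L1, the value without that library is given for many genes but not for all. Why Q4L1 and Q1L1 stood apart was not tested. Genes of a few reads, near-identical copies and the strand of overlapping genes limit single values.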
